A study of Mus musculus with 18 samples.

Results

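The genes described here are the ATP-binding cassette (ABC) transporters of the mouse other than Abca1 and Abcg1. They were taken by symbol, as every row named Abc, a class letter from a to g, a number and at most 1 further letter. This gave 48 of the 23420 gene symbols in the count tables. Of these, 41 passed the filter on low counts and were tested among 17166 genes. The 7 that did not pass were Abca6, Abca14, Abca15, Abca16, Abcb5, Abcb11 and Abcg5. Abca1 and Abcg1, which answer to liver X receptors in many cells, serve below as comparators.

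The RNA was that of the wild type mouse line E14, as embryonic stem (ES) cells and as neural cultures grown out of them, in 18 libraries that make 9 groups of 2. ES cells grown without feeders and with leukemia inhibitory factor were kept as control (day 0) or treated for 24 h with 1 µM GW3965, 1 µM LG268 or the pair, against a vehicle of dimethylsulfoxide. Embryoid bodies formed without that factor received 5 µM retinoic acid over 4 days and were plated in N2 medium, and cultures were taken at days 8, 16 and 17, with GW3965 groups at 1 µM on days 16 and 17. The labels do not give the length of GW3965 exposure for the day 16 and day 17 groups (names of the deposited files read as from day 8 and as 24 h), and they do not say whether replicates were separate cultures, so p values measure the spread between libraries, which may be technical. All groups share 1 wild type line, and no gene was altered in any of them.

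ABC transporters use ATP to move lipids, drugs, peptides, metals or conjugates across membranes. The classes differ in their cargo and in the membrane they sit in, and the E and F classes have no membrane part and act on ribosomes and translation. GW3965 activates liver X receptors (LXR), sterol sensors that bind DNA with retinoid X receptors (RXR), and LG268 activates RXR. In brain tissue, ABC pumps such as P-glycoprotein and Abcg2 are known for keeping drugs out at the vessel wall, and peroxisomal ABC transporters for fatty acid breakdown in glia.

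Libraries held 16.75 to 44.79 M gene counts (median 23.51), and 42 to 46 of the 48 genes had a count in each. Levels below are TMM-scaled counts per M (CPM), and means carry the SD of 2 libraries. The 4 day 17 files list 31.84 to 33.53% of reads as aligned more than once, where the other 14 files list 0. Every sample is labelled as embryonic stem cells. The 8 pluripotency markers summed to 2470 to 2710 CPM in the ES libraries and to 56.2 to 170 CPM in every later library, while 8 neuron markers summed to 392 to 492 and to 1360 to 3430 CPM. The 8 fibroblast and mesenchyme markers reached 10200 to 11600 CPM at day 16, against 97.7 to 138 CPM in ES cells. Markers of several cell types stood side by side in the later cultures, and in such bulk RNA fewer cells of a type and less RNA per cell cannot be told apart. The day 16 GW3965 libraries differed most from each other, with a chi-square per gene of 39.94 against 2.741 to 9.672 in the other groups.

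Start regions of these genes were read from RefSeq (GRCm38.p6) as windows from 250 bases before to 50 bases after each start. Windows were found for 37 of the 48 genes, 44 in all. A loose form of the direct repeat bound by LXR with RXR, NGGTNA 2 times on 1 strand with 4 bases between, was searched on both strands. It occurs in 236 of 32851 windows (0.718%), in 0 of the 44 windows of the 37 genes, and in that of Abca1. Abcg1 was not searched, so the match in a comparator rests on 1 gene. The stricter repeat of AGGTCA with the same gap occurs in 5 windows (0.0152%) and in none of these genes. At shares this low most sets of 44 windows would hold neither repeat, so their absence does not set these genes apart. Sites outside the windows were not searched. The matching stretch of the comparator, with the motif in capitals at bases -67 to -52 from the start, lies at chr4:53159925-53159984 and is printed on the plus strand, opposite to the gene.

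Abca1: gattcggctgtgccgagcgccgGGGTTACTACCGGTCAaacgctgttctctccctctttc

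Abcb1b and Abcc4 are among the exporters with a large change at day 8, and their starts are the same in GENCODE and RefSeq. Their 100 bases before the start are shown for comparison. Capitals mark CCAAT boxes (on either strand, so also ATTGG) and the GC box GGGCGG. Abcb1b is read on the plus strand at chr5:8798047-8798146, and Abcc4 on the minus strand at chr14:118706220-118706319.

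Abcb1b: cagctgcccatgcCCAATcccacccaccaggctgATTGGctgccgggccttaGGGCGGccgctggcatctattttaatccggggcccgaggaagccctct

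Abcc4: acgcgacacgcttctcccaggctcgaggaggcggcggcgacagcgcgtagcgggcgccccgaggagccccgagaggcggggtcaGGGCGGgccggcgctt

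Both stretches hold 1 GC box, and only that of Abcb1b holds CCAAT, 2 times. Over all windows GGGCGG occurs in this 100-base stretch in 24.7% and CCAAT in 18.9%. Among the 44 windows of the ABC genes the shares are 38.6% and 15.9%. These matches are a description of letters and say nothing on binding.

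In ES control cells the 48 genes summed to 2310 CPM, and the sum was 1600 ± 9.24 at day 8, 1490 ± 30.6 at day 16 and 1290 ± 4.74 at day 17. The E and F classes made up 45.7% of it in ES cells and 37.9% at day 16. Per kb of exon, Abce1, Abcf2 and Abcf1 were the highest 3 of all the genes in every group. In ES control Abce1 stood at 92.1 ± 0.819, Abcf2 at 70.5 ± 1.2 and Abcf1 at 60.1 ± 0.662 CPM per kb. At day 8 Abcf2 was above Abce1 on this scale, at 57.6 ± 0.701 against 54.1 ± 0.448 CPM per kb. The same order held at day 16 with GW3965 (37.1 ± 0.42 against 35.6 ± 0.217 CPM per kb). At day 17 with GW3965 both were close (33.9 ± 1.12 and 33.5 ± 1.82 CPM per kb). The drug and conjugate exporters of the C class fell in sum from 480 ± 0.678 CPM in ES control to 225 ± 7.28 CPM at day 8. The plasma membrane genes of the B class went from 54.8 ± 1.97 to 8.98 ± 0.231 CPM.

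**Figure D1:**
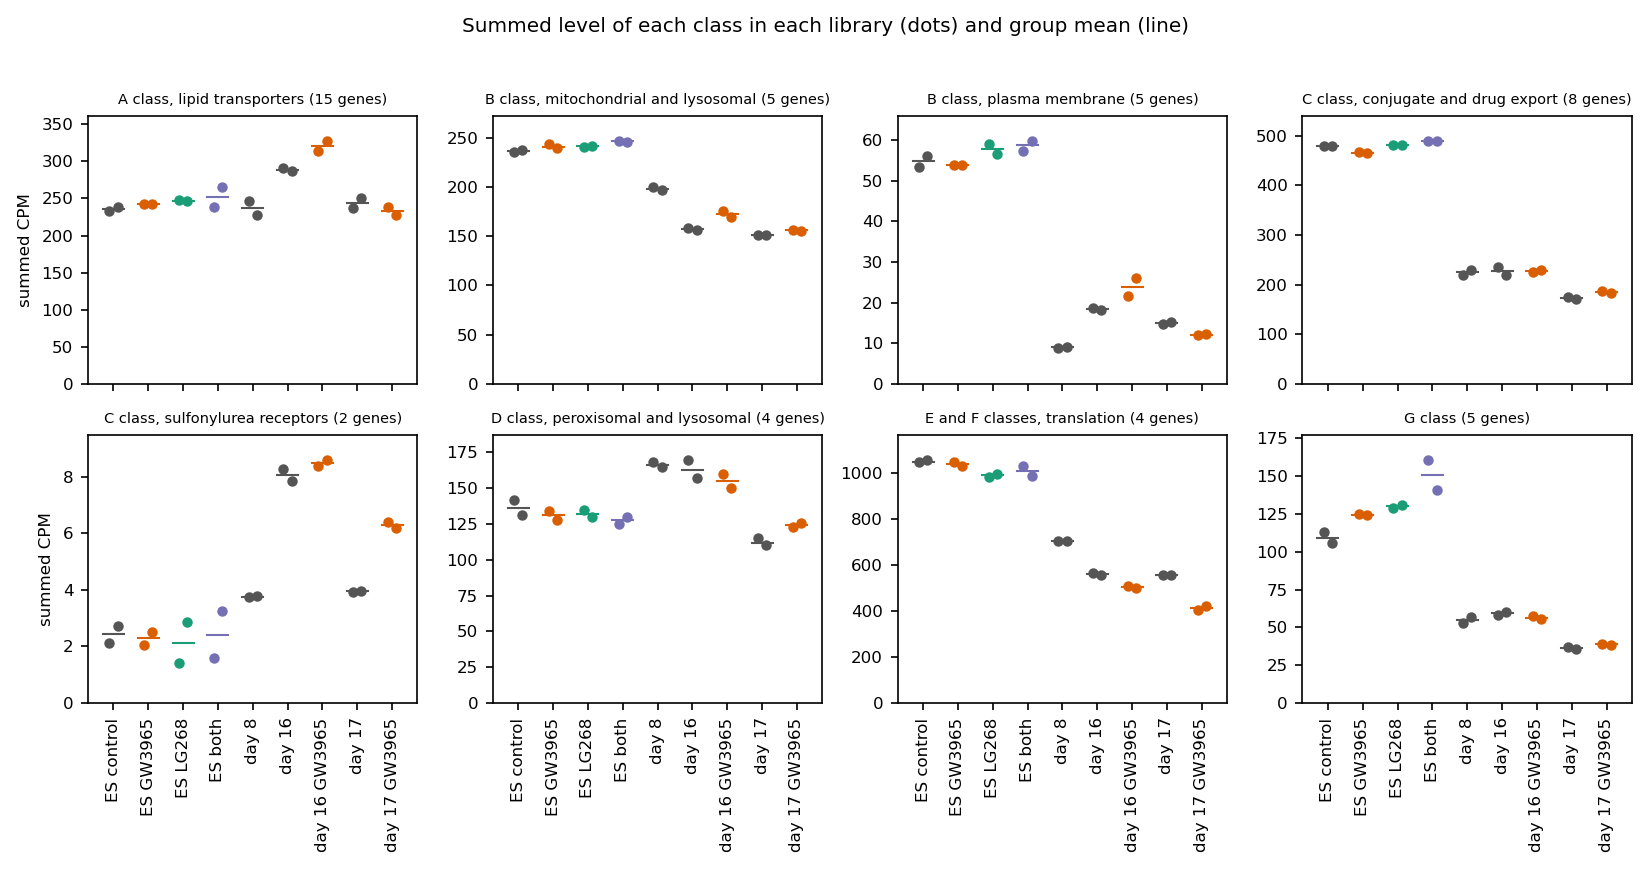
Summed CPM (vertical axis) of each of 8 classes of ABC transporter genes in the 9 groups (horizontal axis), with dots for the 2 libraries and a line for their mean. The E and F sum goes from 1050 CPM in ES control to 414 CPM at day 17 with GW3965, and the B class plasma membrane sum from 54.8 to 8.98 CPM at day 8.

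The first step of differentiation, day 8 against ES control, called 15 of the 41 tested genes higher and 19 lower at an adjusted p below 0.05. Among all 17166 genes tested, 39.7% were higher and 39.1% lower, so the share called higher is near the background and that called lower is somewhat above it. The median log2 difference was -0.25 over the ABC genes and 0 over all genes, and 23 of the 34 called genes differed 2-fold or more. The calls of 25 of the 34 held in every alternative analysis, and with any single library left out, where the gene was tested. Here and below, a gene that a setting filtered out or gave no adjusted p was not counted as lost. The stricter filter and the fit of these groups alone each kept 31 of the 34, and the rest were not tested there.

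Abcc1, Abcc4, Abcb1a, Abcb1b and Abcg2 were lower at day 8, and Abcc5 was higher. Abcc1 (chromosome 16, 14361558 to 14475737), which exports glutathione conjugates and leukotrienes, stood at 264 and 261 CPM in ES control and at 44.3 and 42.2 CPM at day 8. The groups lie far apart and the fall was 6.06-fold (log2 -2.60 ± 0.068 SE, adjusted p = 9.89e-18). Abcc4 (chromosome 14, 118482692 to 118706219), an exporter of cyclic nucleotides and prostaglandins, stood at 80.2 and 79.9 CPM and then at 9.32 and 9.41 CPM. It was 8.54-fold lower (log2 -3.10 ± 0.0986, adjusted p = 1.82e-16) and stayed between 7.86 and 12.4 CPM in every later library.

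The rodent P-glycoprotein genes Abcb1a (chromosome 5, 8660077 to 8748575) and Abcb1b (chromosome 5, 8798147 to 8866315), pumps for many drugs, lie side by side on the same strand. Abcb1a stood at 12.4 and 12.9 CPM in ES control and at 1.47 and 1.08 CPM at day 8, a 9.99-fold fall (adjusted p = 4.33e-12). Abcb1b stood at 40.6 and 42.8 CPM and then at 6.11 and 6.17 CPM, a 6.78-fold fall (adjusted p = 2.55e-15). In both genes the ES libraries are above all later ones. The next gene on that strand, Abcb4 (chromosome 5, 8893717 to 8959231), the phospholipid floppase of bile formation, went from 0.22 and 0.395 up to 0.89 and 1.67 CPM (4.1-fold, adjusted p = 0.00128). Of the 50-base stretches of Abcb1a 22.5% also occur in other genes, most often in Abcb1b, and of those of Abcb1b 12.8%, most often in Abcb1a, so the counts of both are uncertain by that share.

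Abcg2 (chromosome 6, 58584523 to 58695676), the breast cancer resistance protein and a marker of dye-excluding stem cells, stood at 110 and 104 CPM in ES control. At day 8 it stood at 43.3 and 47.8 CPM, 2.35-fold lower (adjusted p = 7.4e-12). Abcc3, an exporter of bile acid and glucuronide conjugates, was 9.34-fold lower (2.68 ± 0.181 to 0.276 ± 0.117 CPM), and Abcc2, the canalicular conjugate pump, 4.29-fold lower. Abcc5 (chromosome 16, 20331303 to 20426394), an exporter of cyclic nucleotides, moved the other way, from 108 and 113 to 136 and 149 CPM (1.29-fold higher, adjusted p = 5.92e-06). Of the 8 C class exporters 3 were higher (Abcc5, Abcc10 and Abcc12) and 5 lower. Abcc10 stood at 21.1 ± 1.76 and then at 28.2 ± 0.176 CPM. The Abcc12 call, near 0 CPM (0.205 ± 0.126 at day 8), was lost without day 8 replicate 2 (adjusted p = 0.213) or ES control replicate 2 (0.174), and by the DESeq2 Wald test (0.0604).

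**Figure D2:**
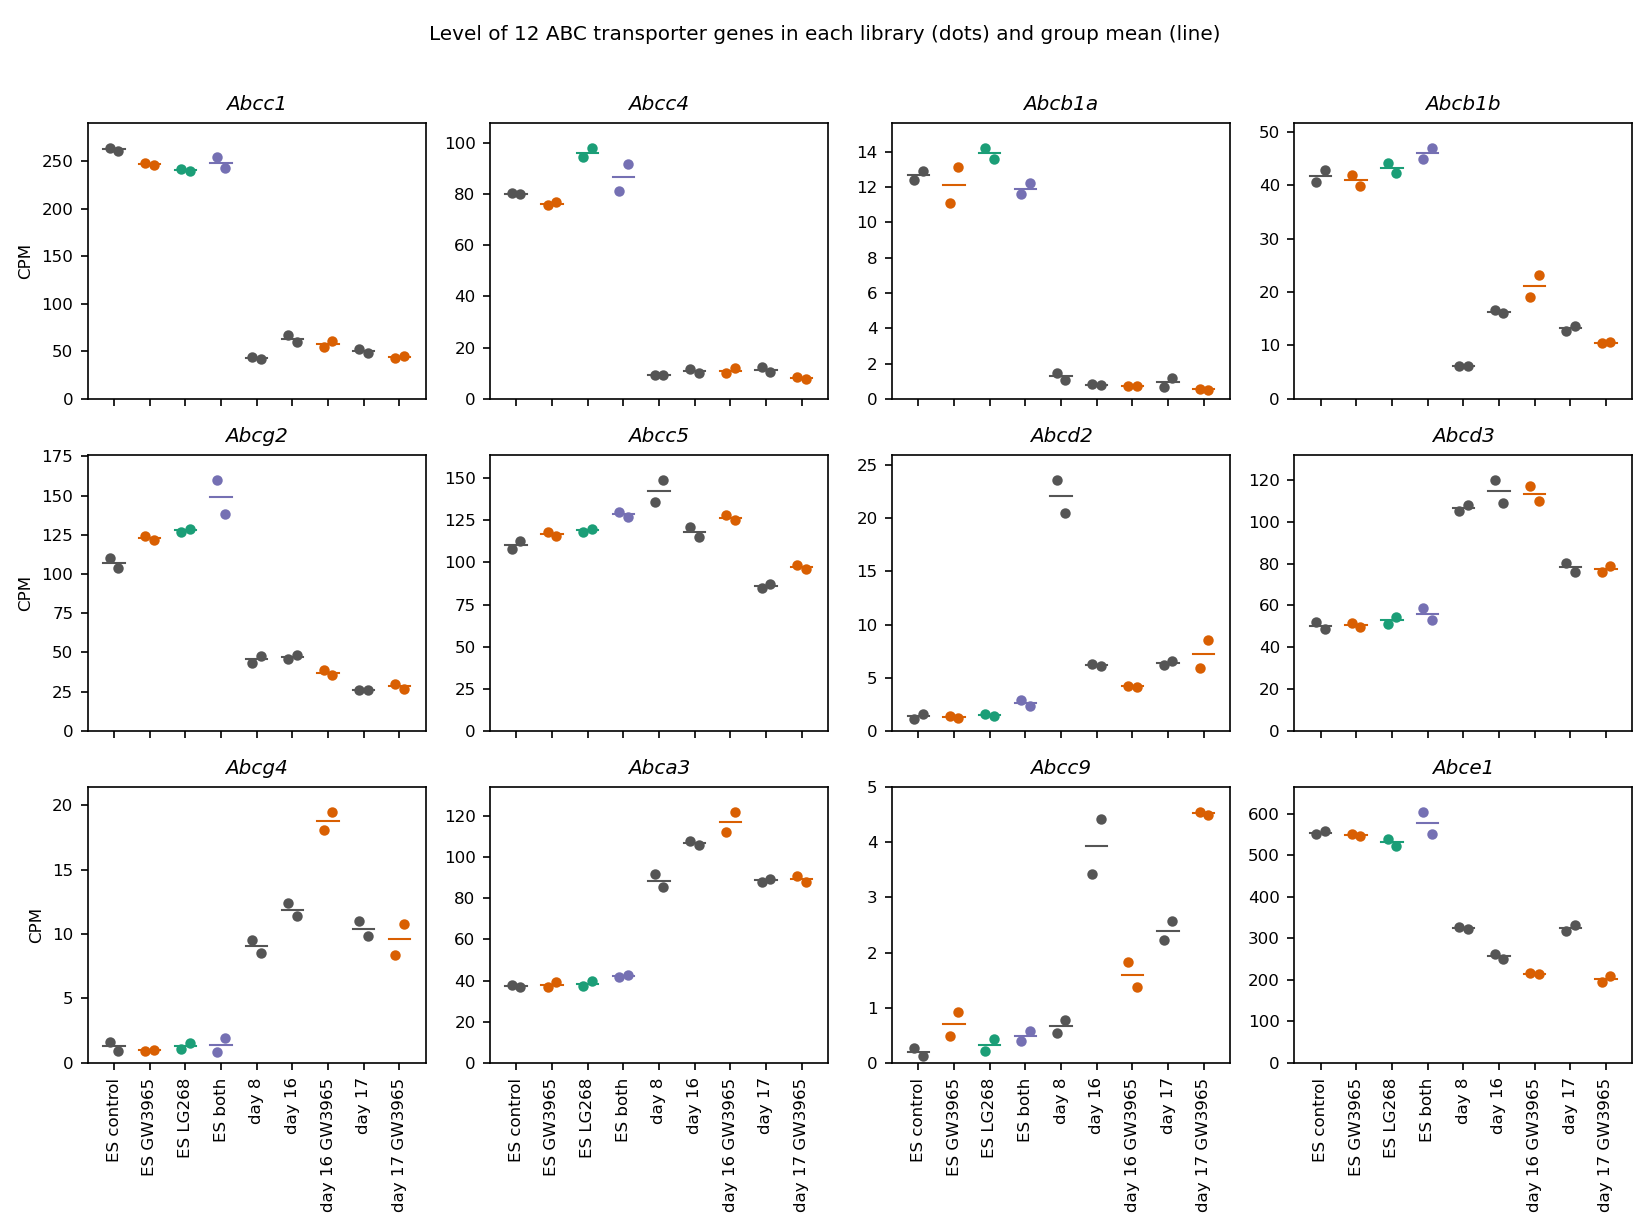
CPM (vertical axis, from 0, own scale for each gene) of 12 ABC transporter genes in the 9 groups (horizontal axis), with dots for the 2 libraries and a line for their mean; orange marks GW3965. Abcc1, Abcc4, Abcb1a, Abcb1b and Abcg2 are highest in the ES groups, Abcd2 peaks at day 8 (22.1 CPM) and Abcd3 and Abcg4 are higher in all later groups than in ES cells.

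The peroxisomal half-transporters Abcd2 and Abcd3 rose at day 8. Abcd2 (chromosome 15, 91145871 to 91191799), which imports very long and polyunsaturated acyl chains, stood at 1.1 and 1.62 CPM in ES control and at 23.6 and 20.5 CPM at day 8. The groups do not overlap, and the rise was 16-fold (log2 4.00 ± 0.215, adjusted p = 7.12e-13). Abcd3 (chromosome 3, 121758774 to 121815302), which imports branched and dicarboxylic acyl chains, went from 52.1 and 48.6 to 105 and 108 CPM (2.12-fold, adjusted p = 1.44e-11). Abcd4 (chromosome 12, 84601464 to 84617413), which acts in lysosomal export of vitamin B12 rather than in peroxisomes, fell from 70.2 and 61.2 to 18.3 and 16.1 CPM (3.82-fold, adjusted p = 4.31e-13).

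Of 25 peroxisome genes listed with these transporters, 12 were higher and 8 lower at day 8. Pex2, an import factor, rose 2.41-fold (28.5 ± 0.38 to 68.8 ± 4 CPM). Phyh, which starts the breakdown of phytanic acid, fell 3.65-fold (67.3 ± 0.944 to 18.4 ± 0.532 CPM).

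The A class, whose products move phospholipids and sterols, split at day 8 with 4 of 11 tested genes higher and 5 lower. Abca3 (chromosome 17, 24351950 to 24410201), the lipid pump of lamellar bodies, went from 37.8 and 36.9 to 91.8 and 85.3 CPM (2.37-fold, adjusted p = 6.95e-13). Its groups lie well apart, with 10.1% of its 50-base stretches also found in other genes, most often in the overlapping antisense gene D330041H03Rik, and no strand setting of the counting is known. Abca2 (chromosome 2, 25428703 to 25448540), a lysosomal lipid transporter of the brain, went from 93.3 and 95.1 to 56.6 and 54.6 CPM (1.7-fold lower, adjusted p = 1.23e-09). Abca7 (chromosome 10, 79996494 to 80015572), a phospholipid transporter tied to Alzheimer risk, was 1.31-fold lower (adjusted p = 0.00683, and 0.144 without day 8 replicate 2). Abca5 (chromosome 11, 110269369 to 110337716), a lysosomal lipid transporter, was 1.21-fold higher (adjusted p = 0.00955, 0.0688 without day 8 replicate 1 and 0.134 without ES control replicate 1). Abca8a had no count in ES control and was at least 3.4-fold higher at day 8 by a floor of 3 counts over the group.

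Among the mitochondrial and lysosomal genes of the B class, 2 were higher and 1 lower at day 8. Abcb9 (chromosome 5, 124061530 to 124095798), a lysosomal peptide transporter, was 2.27-fold higher at 3.24 ± 0.511 than at 1.42 ± 0.166 CPM (adjusted p = 0.00143). Of 20 heme and iron-sulfur genes 5 were higher and 7 lower at day 8, with Uros 3.39-fold higher, Cpox 3.39-fold lower (both enzymes of heme synthesis) and Gfer 3.04-fold lower.

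The translation genes fell, apart from Abcf3. Abce1 (chromosome 8, 79683462 to 79711740), which splits ribosomes after termination, went from 550 and 557 to 327 and 323 CPM (1.7-fold, adjusted p = 8.24e-11). Abcf1 (chromosome 17, 35956819 to 35969761), a partner of initiation factor eIF2, went from 263 and 267 to 154 and 152 CPM (1.73-fold, adjusted p = 2.05e-10). Both genes have day 8 libraries far below the ES ones. Abcf3 was 1.44-fold higher (55 ± 1.22 to 79.2 ± 1.65 CPM). Of 13 tested genes of ribosome recycling and initiation 1 was higher and 10 lower, with Eif2s1, a subunit of eIF2, 2.24-fold, the release factor gene Etf1 1.83-fold and the initiation factor gene Eif1ax 1.76-fold lower.

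The sulfonylurea receptors are regulatory subunits of ATP-sensitive potassium channels. Abcc9 (chromosome 6, 142587862 to 142702315), the receptor of vascular and muscle channels, was 0.264 and 0.119 CPM in ES control and 0.542 and 0.784 CPM at day 8. The difference was 3.5-fold (adjusted p = 0.00503, 0.0515 without day 8 replicate 2 and 0.0733 without ES control replicate 2). Abcc8 (chromosome 7, 46104523 to 46180033), the receptor of beta cells and neurons, stood at 1.85 and 2.61 and then at 3.21 and 2.97 CPM and was not called. The channel pore genes both rose, Kcnj8 73.8-fold (0.224 ± 0.13 to 17.2 ± 1.05 CPM) and Kcnj11 1.85-fold. Kcnj8 also stands on the pericyte and smooth muscle marker list. The 8 genes of that list summed to 127 to 129 CPM in ES control and to 388 to 452 CPM at day 8. Most of that rise was Acta2 (34.4 to 294 CPM), and Cspg4, Anpep and Mcam were lower.

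In the G class, Abcg4 (chromosome 9, 44273188 to 44288615), a sterol exporter of neurons and glia, went from 1.63 and 0.948 to 9.56 and 8.56 CPM (7.08-fold, adjusted p = 2.75e-09). It stayed above 8 CPM in every later library. Abcg3, a rodent gene close to Abcg2, had no count at day 8 and was at least 7.44-fold lower than in ES control. Abcg5 and Abcg8, which form the sterol exporter of liver and gut, stayed at or below 0.491 CPM in all 18 libraries, and Abcg5 did not pass the filter.

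The 10 antigen processing genes, among them the peptide transporters Tap1 and Tap2 that carry other symbols, were called higher in 2 cases and lower in 8 at day 8. Tap2 was 29.5-fold lower (65.3 ± 2.47 to 2.2 ± 0.213 CPM) and Tap1 8.41-fold lower. Among 17 tested conjugating and uptake genes, partners of the export pumps, 6 were higher and 7 lower. The prostaglandin uptake gene Slco2a1 was 25.9-fold and Slco3a1 4.42-fold higher, and the glutathione synthesis gene Gclm was 4.09-fold lower.

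From day 8 to day 16, 17 of the 41 genes were called higher and 12 lower, against 29.4% higher and 32.2% lower among all genes. The median log2 difference was 0.22 over the ABC genes and -0.04 over all genes, and 20 of the 29 calls held in every setting. The A class went mostly upwards, with 8 of 11 higher and 1 lower. Abca12, the ceramide transporter of skin, had 1 count in the day 8 libraries together and 215 at day 16, a ratio of 200 with a 95% counting interval of 35.6 to 7950. It stood at 3.5 and 3.58 CPM at day 16. Abca8a rose 12.1-fold (0.217 ± 0.076 to 2.61 ± 0.667 CPM), Abca9 4.07-fold (2.17 ± 0.535 to 8.77 ± 1.58 CPM) and Abca5 1.5-fold (39.9 ± 1.53 to 59.8 ± 0.223 CPM). Abca5, Abca6, Abca9, Abca8a and Abca8b lie next to each other on the minus strand of chromosome 11 (109932190 to 110337716).

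Abca7 ran against its class, 1.37-fold lower (adjusted p = 0.0035, and 0.0716 without day 8 replicate 1). Abca3 was 1.21-fold higher, and Abca2 1.17-fold higher with a call lost without day 16 replicate 1 (adjusted p = 0.0839) or day 8 replicate 2 (adjusted p = 0.0993).

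Some exporters rose again by day 16. Abcc3 went from 0.193 and 0.359 to 6.34 and 7.38 CPM (24-fold, adjusted p = 1.19e-10) and so passed its ES level. Abcc2 rose 5.01-fold to 2.94 ± 1.2 CPM and Abcc6, which supports ATP release from cells, 4.16-fold to 1.77 ± 0.111 CPM. Abcb1b went from 6.11 and 6.17 to 16.6 and 16.1 CPM (2.66-fold, adjusted p = 1.12e-09), while its neighbour Abcb1a stood at 0.823 and 0.798 CPM. The Abcb1a difference (1.56-fold lower, adjusted p = 0.0456) was lost in 9 of 12 settings. These were leaving out day 16 replicate 1 (0.0853), day 16 replicate 2 (0.148) or day 8 replicate 1 (0.272), a replicate block (0.0512), limma-voom (0.137), no filter (0.0651), the fit of these groups alone (0.164), DESeq2 size factors (0.0647) and the DESeq2 Wald test (0.0974). Abcc1 rose 1.46-fold to 63.4 ± 4.87 CPM (adjusted p = 8.49e-07), still far below its ES level.

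Abcc9 went from 0.542 and 0.784 to 3.42 and 4.43 CPM (5.86-fold, adjusted p = 2.29e-06), with no overlap, and Kcnj8 rose 2.74-fold to 47.2 ± 1.33 CPM. The pericyte and smooth muscle markers summed to 1270 to 1420 CPM at day 16, and their part in these results was not tested. Abcb9 rose 2.27-fold again, to 7.3 ± 0.844 CPM. All 10 antigen processing genes rose. Tap1 rose 3.8-fold and Tap2 5.63-fold, and both stayed below their level in ES cells.

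Abcd2 fell after its day 8 peak, from 23.6 and 20.5 to 6.3 and 6.14 CPM (3.55-fold, adjusted p = 2.45e-08). Its day 16 libraries lie below both day 8 ones and above the ES ones. The sum of the neuron markers also fell over this step, from 3390 to 3430 CPM to 1730 to 1740 CPM. The means of Rbfox3, Snap25 and Syt1 on that list were not lower. The part of these markers was not tested. Abcb8 was 1.46-fold lower and Abcc5 1.21-fold lower. All 4 E and F genes were lower, Abcf2 by 1.41-fold, Abce1 by 1.27-fold and Abcf1 by 1.16-fold. The Abcf3 call (1.13-fold, adjusted p = 0.0183) was lost without day 16 replicate 1 (0.0805) or day 8 replicate 2 (0.064), and with DESeq2 size factors (0.0597), the DESeq2 Wald test (0.0861) and the fit of these groups alone (0.0521). Of the 13 ribosome recycling and initiation genes 0 were higher and 9 lower.

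**Figure D3:**
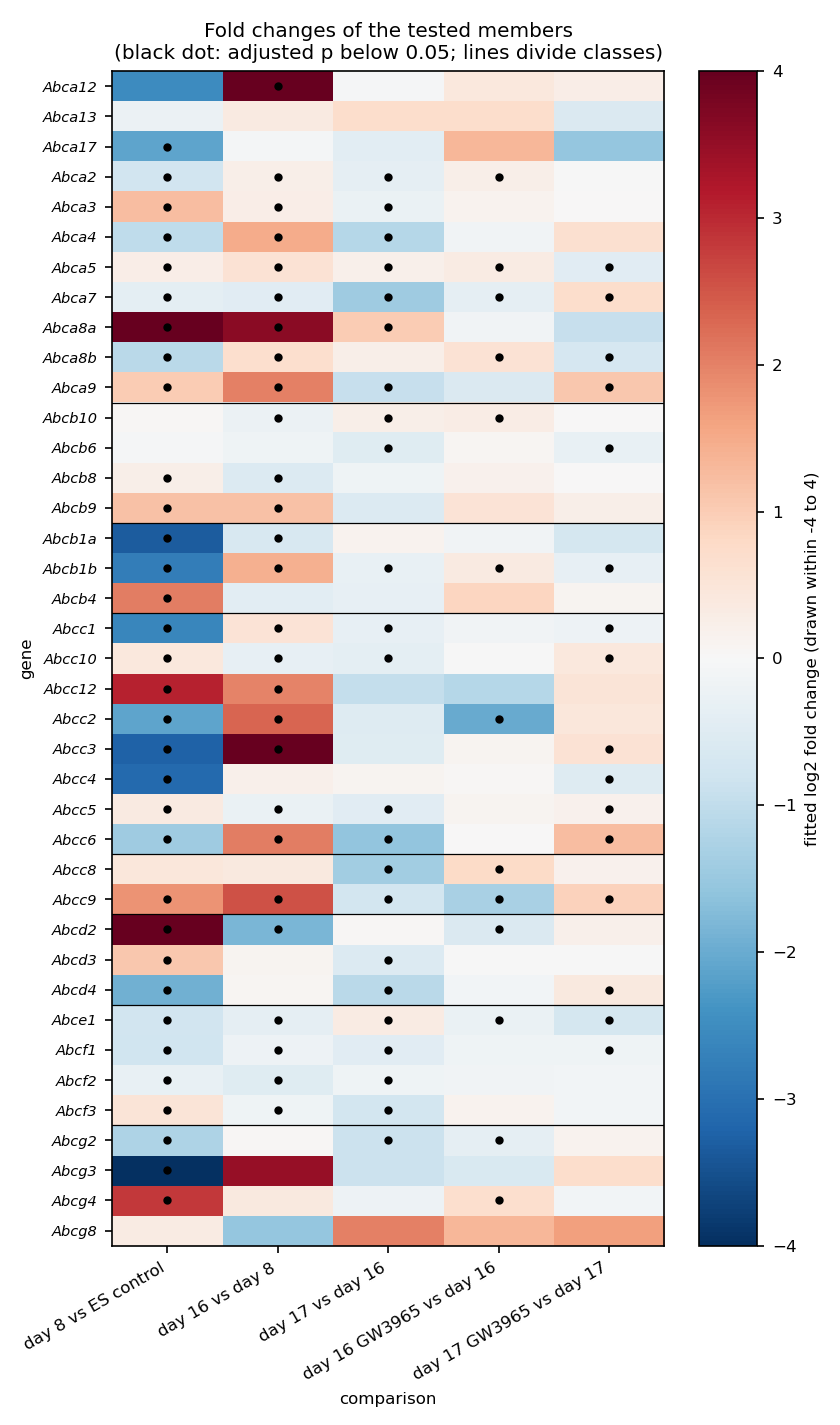
Log2 fold change (colour, drawn at most at 4 in either direction) of 39 tested genes (vertical axis, by class) in 5 comparisons (horizontal axis), with a black dot where the adjusted p was below 0.05. The 3 time steps carry 33, 27 and 23 dots, and GW3965 at days 16 and 17 carries 13 and 16.

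At day 17 the groups were compared with day 16 although the day 17 files differ in how multiply aligned reads are listed, so the effect of that difference and of 1 more day cannot be told apart. Of the 41 genes 4 were higher and 20 lower, against 26.8% higher and 29.5% lower among all genes. The median log2 difference was -0.36, beside -0.02 over all genes, and 15 of the 24 calls held in every setting. The astrocyte markers summed to 1370 to 1410 CPM at day 16 and 3300 to 3670 CPM at day 17. Most of that rise was Gfap (575 to 2350 CPM), and Aldh1l1, S100b and Aldoc were lower. The neural progenitor markers summed to 2010 to 2120 and 1090 to 1180 CPM. The pericyte and smooth muscle markers summed to 1270 to 1420 and 676 to 819 CPM. That fall lay mostly in Acta2 (870 to 421 CPM) and Myh11 (260 to 140 CPM), with Anpep and Mcam also lower. Kcnj8 (47.2 to 60.4 CPM), Cspg4, Rgs5 and Pdgfrb were not lower. The part of these markers in the calls was not tested. Abca7 went from 34.2 and 31.7 to 13.6 and 10.7 CPM (2.68-fold lower, adjusted p = 5.17e-08). Abcc8 fell 2.6-fold to 1.55 ± 0.218 CPM, Abcd4 2.09-fold to 8.7 ± 0.476 CPM, Abcd3 1.46-fold to 78.2 ± 2.76 CPM, Abcc5 1.36-fold to 86.3 ± 1.67 CPM and Abca2 1.28-fold. Abcg2 went from 45.6 and 48.5 to 25.8 and 25.8 CPM (1.83-fold lower, adjusted p = 2.87e-08). In each of these genes both day 17 libraries lie below both day 16 ones.

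Abce1 rose over that day, from 263 and 250 to 318 and 332 CPM (1.27-fold, adjusted p = 2.38e-05), while Abcf3 fell 1.65-fold and Abcf1 1.36-fold. Of the 13 recycling and initiation genes 7 were higher and 5 lower, with Eif1, which guides start codon choice, 2.56-fold higher and Eif2s3x, a subunit of eIF2, 4.35-fold lower. The rises of Abca8a (2.01-fold, adjusted p = 0.0233), Abcb10 (1.18-fold, adjusted p = 0.0129) and Abca5 (1.16-fold, adjusted p = 0.0393) were lost without day 17 replicate 2 (adjusted p = 0.411, 0.143 and 0.555) or day 16 replicate 1 (0.15, 0.0527 and 0.101), and that of Abca5 also without day 16 replicate 2 (0.101). The Abcc9 fall (1.66-fold, adjusted p = 0.0476) was lost without any 1 of the 4 libraries (adjusted p = 0.0512 to 0.296), with a replicate block (0.0555), by the DESeq2 Wald test (0.104) and with no filter (0.0509). The fall of Abcb1b (1.24-fold, adjusted p = 0.0146) was lost without day 16 replicate 1 (0.0751) or day 17 replicate 1 (0.124).

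The ligand comparisons in ES cells asked which of these transporters move when LXR or RXR is activated. GW3965 alone raised Abca1 from 8.79 and 7.51 to 345 and 327 CPM (41.3-fold) and Abcg1 8.43-fold. Of the other 41 ABC genes edgeR called 0 higher and 0 lower, where 0.309% of all genes were higher and 0.0117% lower. At an unadjusted p below 0.05 there were 3, and DESeq2 and limma-voom called 0. The share of all genes at an unadjusted p below 0.05 was not counted, here or in the comparisons below. The DESeq2 Wald test gave no adjusted p for 10 of the 41. For 24 of the 41 the 95% interval lay within 1.5-fold in either direction, and the other 17 could have moved by more. The log2 values ran from -1.12 for Abca13 to 1.97 for Abcc12, both near 0 CPM.

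LG268 alone raised Abca1 4.8-fold and Abcg1 2.37-fold, and again 0 of the 41 were called in either direction by edgeR, DESeq2 or limma-voom, against 0.518% higher and 0.332% lower among all genes. The DESeq2 Wald test gave no adjusted p for 5 of the 41. At an unadjusted edgeR p below 0.05 there were 4, and for 23 of the 41 the interval lay within 1.5-fold. Abcg2 had the smallest adjusted p (0.138), with 127 and 129 CPM against 110 and 104 CPM in control. Both LG268 libraries lie above both controls. In the fit of these groups alone 3 genes were called higher, Abcg2 among them (adjusted p = 0.000391), and 1 lower. With no filter 2 were called higher, Abcg2 among them (0.0434). Other genes also had no overlap, such as Abcc4 (94.3 and 97.9 against 80.2 and 79.9 CPM) and, downwards, Abcf1 (229 and 244 against 263 and 267 CPM). In the fit of GW3965 and control alone Abcg2 was called too (adjusted p = 0.0156), with 124 and 122 CPM.

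With both ligands together Abca1 stood at 576 and 531 CPM (68.1-fold above control) and Abcg1 at 276 and 308 CPM (12.4-fold). The names of both deposited files of this group carry ctrl beside the ligands, while the labels give both ligands. In these libraries 5 of the 41 were higher and 3 lower than control, against 4.83% and 6.47% of all genes. Abcg2 stood at 160 and 138 CPM against 110 and 104 CPM (1.39-fold higher, log2 0.47 ± 0.0738, adjusted p = 0.000373), the 1 call of the 8 that held in every setting and without any library. Abca5 stood at 45.7 and 46.2 CPM against 30.8 and 35.1 CPM (1.39-fold higher, adjusted p = 0.00248, and 0.0563 without ES control replicate 1). In both genes the groups do not overlap, and they were the 2 called in the fit of these groups alone. Abcf1 stood at 200 and 223 CPM against 263 and 267 CPM (1.25-fold lower, adjusted p = 0.00174, and 0.0655 in the fit of these groups alone).

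Abcd4 was 1.34-fold lower with 44.9 and 53 against 70.2 and 61.2 CPM (adjusted p = 0.00674), a call lost without both-ligand replicate 1 (0.113) or control replicate 1 (0.118). Abcd2 was 1.9-fold higher at a low level, 2.86 and 2.36 against 1.1 and 1.62 CPM (adjusted p = 0.0278), and this was lost without the same libraries (0.211 and 0.226). Their groups do not overlap. Abcc5 (1.16-fold higher, adjusted p = 0.0199) and Abcb6, which carries porphyrins (1.22-fold lower, adjusted p = 0.0372), were each lost without both-ligand replicate 1 (adjusted p = 0.111 and 0.321), control replicate 1 (0.176 and 0.0883) or control replicate 2 (0.0596 and 0.232). Of the 50-base stretches of Abcb6 50% also occur in other genes, most often in Gm29253, which covers 55.2% of its exons on the same strand. Among the partners 4 of 25 peroxisome genes were higher, and 1 of 20 heme and iron-sulfur genes was lower, Glrx5 (1.68-fold), which carries iron-sulfur clusters in mitochondria.

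**Figure D4:**
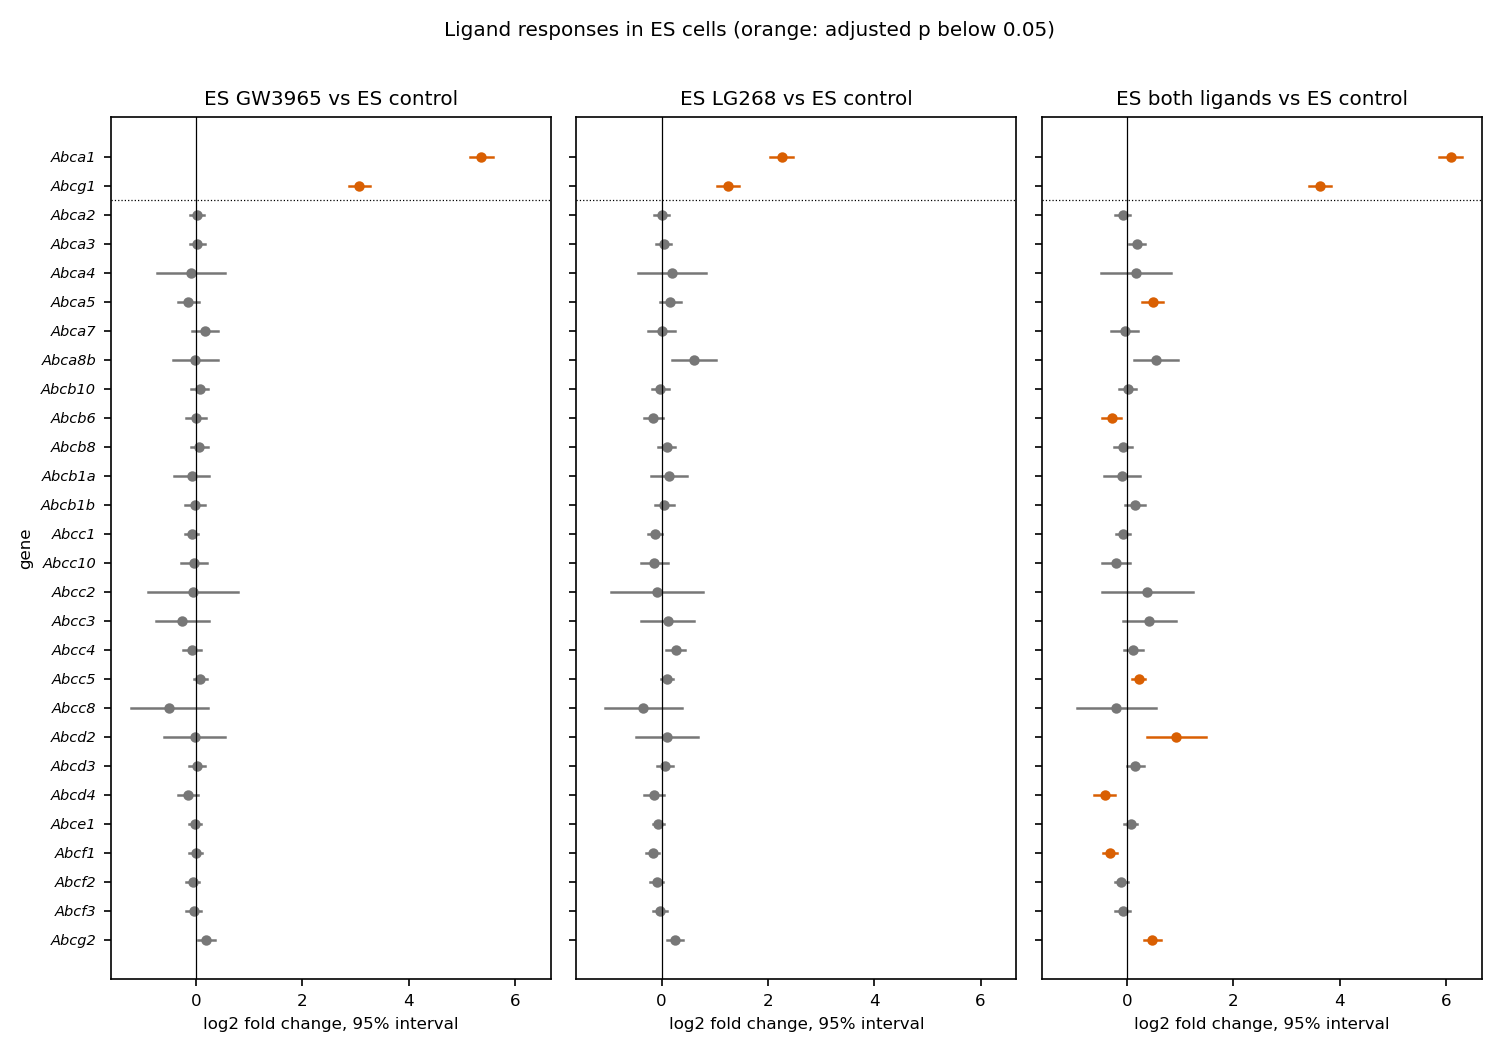
Log2 fold change with 95% interval (horizontal axis) of 26 ABC genes at 1 CPM or more in every ES library (vertical axis), below the comparators Abca1 and Abcg1, for GW3965, LG268 and both ligands against ES control; orange marks an adjusted p below 0.05. With either ligand alone the comparators are orange and no other gene is, and with both ligands Abcd2, Abca5 and Abcg2 lie furthest to the right of 0 among the others called.

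The added effect of LG268 over GW3965 was read from both ligands against GW3965, where 4 of the 41 were higher and 3 lower, against 3.68% and 6.98% of all genes. Abca5 was 45.7 and 46.2 CPM against 29.8 and 29.8 CPM (1.54-fold higher, adjusted p = 0.000485), held in every setting. Abcg2 was 1.21-fold higher (adjusted p = 0.0188), lost without both-ligand replicate 1 (0.299) or either GW3965 library (0.111 and 0.108). Abcf1 was 1.25-fold lower (adjusted p = 0.00288, and 0.0542 without both-ligand replicate 1). Abcb9 stood at 0.225 and 1.1 CPM against 1.91 and 1.49 CPM (2.57-fold lower, adjusted p = 0.0324), which was lost without both-ligand replicate 1 (0.408), GW3965 replicate 1 (0.247) or GW3965 replicate 2 (0.0535). The groups of each of these genes do not overlap. Abcd2 (1.94-fold higher) and Abcb6 (1.22-fold lower), at adjusted p = 0.0218 and 0.0383, were also lost without both-ligand replicate 1 (0.219 and 0.366), GW3965 replicate 1 (0.0926 and 0.173) or GW3965 replicate 2 (0.107 and 0.126).

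Both ligands against LG268 gave 0 calls among the 41 with edgeR, against 1.63% higher and 2.57% lower among all genes. Here 9 had an unadjusted p below 0.05, with no share of all genes at that cut to set beside it. Limma-voom called 0 and the DESeq2 Wald test 2 (Abca5 and Abcg2). That Wald test gave no adjusted p for 18 of the 41. Without both-ligand replicate 2 there were 6 calls. The test of whether the ligands together differed from the sum of each alone (log2 scale) called 0 of the 41 and 0.134% of all genes in either direction. At an unadjusted p below 0.05 there were 4, and DESeq2 and limma-voom called 0. The DESeq2 Wald test gave no adjusted p for 12 of the 41.

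GW3965 in the day 16 cultures raised Abca1 3.87-fold and Abcg1 8.75-fold. Of the 41 other genes 7 were higher and 6 lower, against 13% and 18.7% of all genes. The 13 calls are spread over most classes, and 6 held in every setting. Sums of cell type markers differed over this comparison. The fibroblast markers summed to 10200 to 11600 CPM without and 4770 to 6030 CPM with GW3965 and the pericyte markers to 1270 to 1420 and 778 to 967 CPM, while the neuron markers summed to 1730 to 1740 and 2610 to 2800 CPM. The part of these shifts in the calls below was not tested.

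Abcc9 stood at 3.42 and 4.43 CPM at day 16 and at 1.82 and 1.38 CPM with GW3965 (2.47-fold lower, adjusted p = 0.00234). Its groups do not overlap. Its channel partner Kcnj8 stood at 46.3 and 48.2 and at 31.7 and 24.1 CPM (1.69-fold lower, adjusted p = 0.000495). The other receptor, Abcc8, stood at 4.86 and 3.41 and at 6.57 and 7.22 CPM (1.68-fold higher, adjusted p = 0.0464), and its partner Kcnj11 was 1.61-fold higher (3.26 ± 0.251 to 5.26 CPM). The Abcc8 call was lost without day 16 replicate 2 (0.337) or either GW3965 library (0.0716 and 0.167), with a replicate block (0.0552) and by the DESeq2 Wald test (0.0693).

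Abcc2 stood at 3.79 and 2.09 CPM and at 0.908 and 0.52 CPM with GW3965 (4.02-fold lower, adjusted p = 0.00186). Abcg2 stood at 45.6 and 48.5 and at 38.7 and 35.4 CPM (1.27-fold lower, adjusted p = 0.00198). Abce1 stood at 263 and 250 and at 215 and 213 CPM (1.2-fold lower, adjusted p = 0.00129). In all 3 genes both GW3965 libraries lie below both others, and the calls held in every setting. Abca5, at 59.6 and 59.9 and at 75.5 and 75.8 CPM, was 1.27-fold higher (adjusted p = 0.00402), and Abcb10, which serves heme synthesis in mitochondria, was 1.22-fold higher (adjusted p = 0.00512). Both of these held as well.

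The other calls of day 16 were each lost without 1 or more libraries. Abcg4 rose 1.58-fold from 12.4 and 11.4 to 18.1 and 19.5 CPM (adjusted p = 0.00941; 0.0876 without day 16 replicate 2 and 0.058 without GW3965 replicate 2). Abcb1b rose 1.29-fold (adjusted p = 0.00506) and Abca2 1.18-fold (adjusted p = 0.00632), with 0.0526 and 0.0698 without day 16 replicate 2 and 0.141 and 0.0698 without GW3965 replicate 2. Abca8b rose 1.48-fold (adjusted p = 0.0351; 0.106 without day 16 replicate 1, 0.146 without day 16 replicate 2 and 0.231 without GW3965 replicate 2). Abca7 (1.29-fold lower, adjusted p = 0.0331) and Abcd2 (1.48-fold lower, adjusted p = 0.0259) were lost without any 1 of the 4 libraries (adjusted p = 0.0673 to 0.175 and 0.0775 to 0.106). Of the 10 antigen processing genes 8 were lower, and of the 13 recycling and initiation genes 1 was higher and 4 lower.

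At day 17 GW3965 raised Abca1 2.2-fold and Abcg1 5.02-fold. Of the 41 genes 10 were higher and 8 lower, against 17.2% and 18% of all genes, and 5 of these 18 calls held in every setting. The marker sums moved less than at day 16 for fibroblasts (8560 to 9460 and 8510 to 9390 CPM). The progenitor markers went from 1090 to 1180 to 1680 to 1840 CPM and the astrocyte markers from 3300 to 3670 to 2270 to 2750 CPM. Most of the astrocyte fall was Gfap (2350 to 1530 CPM), and S100b and Aldoc were higher. The part of these markers was not tested.

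Abce1 stood at 318 and 332 CPM and at 194 and 209 CPM with GW3965 (1.61-fold lower, log2 -0.69 ± 0.0561, adjusted p = 1.8e-08). The groups lie well apart. Of the 13 genes of ribosome recycling and initiation 0 were higher and 7 lower, with Eif1 2.06-fold (385 and 374 to 179 and 189 CPM), Eif2s2, a subunit of eIF2, 1.79-fold and Etf1 1.47-fold lower. Abcf1 was 1.14-fold lower (adjusted p = 0.0299), which was lost without day 17 replicate 1 (0.266) or either GW3965 library (0.0823 and 0.108).

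Abca7 stood at 13.6 and 10.7 and at 19.3 and 20.9 CPM (1.64-fold higher, adjusted p = 0.00109). Abca9 stood at 4.4 and 4.84 and at 11 and 8.45 CPM (2.11-fold higher, adjusted p = 0.00181). In each gene both libraries with GW3965 lie above both without. Abca5 went the other way, at 62.9 and 76.2 and at 51.3 and 49.8 CPM (1.37-fold lower, adjusted p = 0.000424), also with no overlap. These calls held in every setting.

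Abcc9 stood at 2.22 and 2.57 and at 4.55 and 4.5 CPM (1.9-fold higher, adjusted p = 0.0235), and Kcnj8 at 66.8 and 54 and at 103 and 82.8 CPM (1.53-fold higher, adjusted p = 0.00227). The Abcc9 groups do not overlap, but the call was lost without any 1 of the 4 libraries (adjusted p = 0.0648 to 0.145). Abcc4 stood at 12.4 and 10.4 and at 8.39 and 7.86 CPM (1.41-fold lower, adjusted p = 0.00301, and 0.0811 without day 17 replicate 1). Abcd4 was 1.33-fold higher (adjusted p = 0.0182; 0.14 without day 17 replicate 1 and 0.135 without GW3965 replicate 2). Abcc10 was 1.34-fold higher (adjusted p = 0.0128; 0.0906 without day 17 replicate 2 and 0.0774 without GW3965 replicate 1).

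Other calls at day 17 also turned on single libraries. Without day 17 replicate 1 the calls of Abca8b (1.6-fold lower, adjusted p = 0.0219), Abcb6 (1.22-fold lower, 0.0239), Abcb1b (1.25-fold lower, 0.027), Abcc1 (1.15-fold lower, 0.0349), Abcc5 (1.13-fold higher, 0.0264), Abcc6 (2.37-fold higher, 0.0295) and Abcc3 (1.49-fold higher, 0.0363) were lost, at adjusted p = 0.142, 0.155, 0.0587, 0.303, 0.143, 0.119 and 0.177. Without GW3965 replicate 2 all of these but Abcc3 were lost as well, at adjusted p = 0.227, 0.192, 0.0748, 0.0654, 0.07 and 0.109. Without GW3965 replicate 1 Abcb1b, Abcc1, Abcc5, Abcc6 and Abcc3 were lost (0.113, 0.168, 0.125, 0.0658 and 0.198), and without day 17 replicate 2 Abcb1b, Abcc5, Abcc6 and Abcc3 (0.13, 0.0599, 0.105 and 0.0812). Abcg8 stood at 0.128 and 0.175 and at 0.491 and 0.463 CPM and did not pass (3.14-fold, adjusted p = 0.147). Its partner Abcg5, which was not tested, stood at 0.0427 and 0.0583 and at 0.357 and 0.252 CPM.

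Whether the response to GW3965 differed between groups was tested as a difference of responses. Stage, length of exposure and, for day 17, the listing of multiply aligned reads cannot be told apart in these tests. Day 16 against ES cells gave 2 higher and 5 lower of the 41, and 14.8% of all genes in either direction. Abcc9 (log2 -3.08 ± 0.617, adjusted p = 0.00207) and Abcg2 (log2 -0.54 ± 0.107, adjusted p = 0.00193) held in every setting. The Abcc9 value includes a rise in ES cells near 0 CPM that was not called. Abcc9 stood there at 0.191 ± 0.103 CPM in control and 0.706 ± 0.306 CPM with GW3965 (edgeR adjusted p = 0.371). Day 17 against ES cells gave 2 higher and 2 lower, and 18.2% of all genes. Abce1 (log2 -0.68 ± 0.0782, adjusted p = 6.25e-06) held throughout.

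Day 17 against day 16 was a comparison chosen after the data were seen. It called 10 of the 41 higher and 8 lower, and 37% of all genes in either direction. The day, the length of exposure and the listing of multiply aligned reads cannot be told apart in it. The responses share no library. Among the genes called in both, 0 were higher in both and 1 was lower in both (Abce1). From higher to lower went 3 (Abca5, Abca8b and Abcb1b), and from lower to higher 2 (Abca7 and Abcc9). That tally was not made over all genes, so it is not shown to be particular to these genes. The difference for Abcc9 was 4.69-fold (log2 2.23 ± 0.428, adjusted p = 0.000401) and for Abca7 2.11-fold (log2 1.08 ± 0.198, adjusted p = 0.000253). For Abca5 it was log2 -0.80 ± 0.122 (adjusted p = 3.77e-05), for Abca8b -1.24 ± 0.297 (adjusted p = 0.00259) and for Abcb1b -0.69 ± 0.145 (adjusted p = 0.000844). These 5, and those of Abca9, Abcc2, Abce1 and Abcg2, held in every setting. Kcnj8 differed the same way as Abcc9 (log2 1.38, adjusted p = 2.92e-05) and 9 of the 10 antigen processing genes were higher in this difference.

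**Figure D5:**
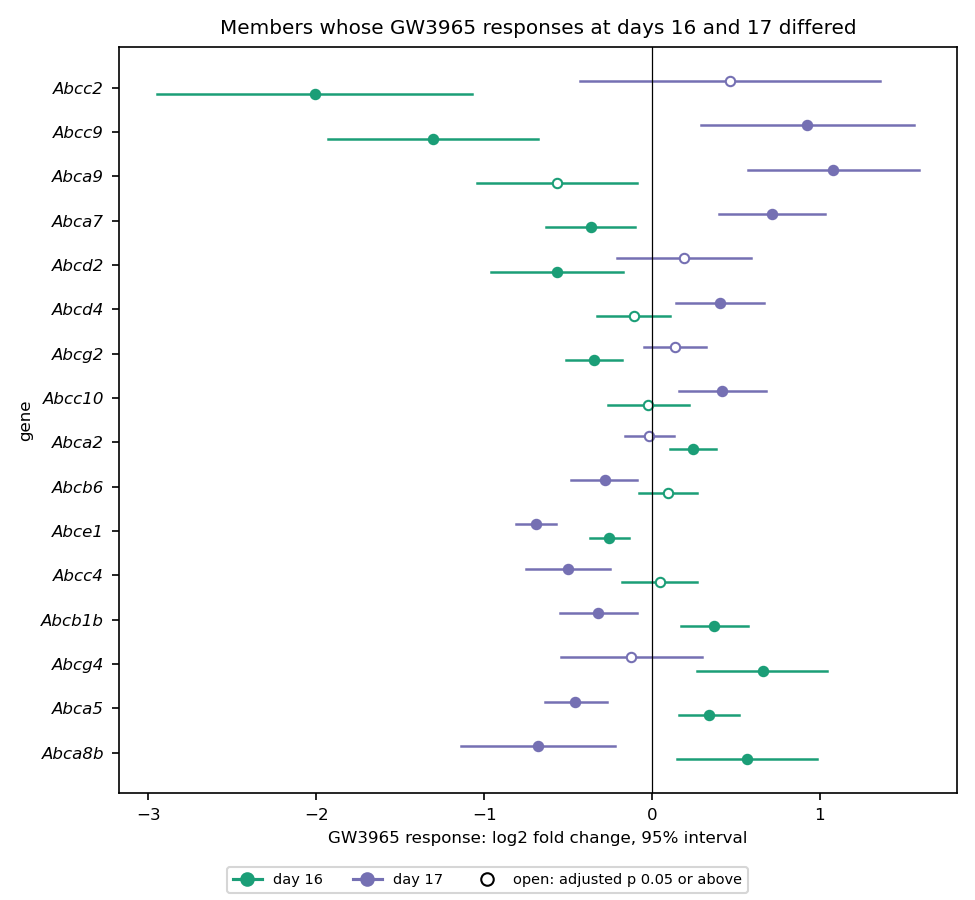
Log2 fold change under GW3965 with 95% interval (horizontal axis) at day 16 and at day 17 for 16 ABC genes whose responses differed between the days (vertical axis), with open points at an adjusted p of 0.05 or above. Abcc9 and Abca7 lie left of 0 at day 16 and right of 0 at day 17, and Abca5, Abca8b and Abcb1b the other way.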

How the data were processed

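Per the submitters' processing notes, the genome build was mm10 and the tools named were HTSeq 0.6.0, TopHat2 2.0.7, Cuffdiff 2.0.2 and Cufflinks 2.0.2; their order, the strand setting and annotation are not given in the sources used here. The deposited files hold raw counts per gene symbol with 5 summary lines, which were kept out. Reads in no gene made up 42.14 to 65.92% of each file.

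Genes passing edgeR's filterByExpr (17166 of 23420) were scaled by TMM (factors 0.9124 to 1.108). All 18 libraries entered 1 edgeR 4.0.16 quasi-likelihood fit with 9 groups (R 4.3.3; degrees of freedom 9 residual, 10.41 prior; common coefficient of biological variation 6.471%). Tests were two-sided and p values adjusted by Benjamini-Hochberg over all genes in each comparison, with a call at an adjusted p below 0.05. Groups at 0 were compared by a floor of 3 counts over the group. Intervals of count ratios and floors cover counting error only. Positions, exon lengths and 50-base stretches shared between genes came from GENCODE M21 on GRCm38.

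The members, gene lists and tests were chosen with earlier results of these data known. Named genes were a set of 23 members given throughout, per comparison up to 6 largest rises and 6 falls called without overlap at 1 CPM or more, and all calls in ligand comparisons; partner lists were given as counts with up to 3 genes. Some genes within these rules are counted but not reported by name here. Chromatin, splicing and protein were not analysed here.

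Alternatives were DESeq2 1.42.0 size factors and Wald test, limma 3.58.1 voom, no filter, a stricter filter, a fit of the compared groups alone, a replicate block, leaving out each library and leaving out the day 17 libraries. Equal replicate numbers did not move together (correlations of deviations -0.096 to 0.0691 over 36 pairs), so no pairing was used. The code was tested on simulated data.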

Additional observations from a re-analysis of the deposited data

Results flagged for a closer look

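The results in this part are log2 differences between the responses to GW3965 in 2 groups, each with an adjusted p below 0.05 from the test of the difference. Between day 16 and ES cells these were Abca5 (0.49, adjusted p = 0.012), Abca7 (-0.53, 0.0451), Abcb1b (0.39, 0.0465), Abcc2 (-1.95, 0.0366), Abcc9 (-3.08, 0.00207), Abce1 (-0.25, 0.0383) and Abcg2 (-0.54, 0.00193). Those of Abcc9 and Abcg2 held in every setting. The Abcc9 value includes an uncalled rise in ES cells near 0 CPM, from 0.191 ± 0.103 to 0.706 ± 0.306 CPM. Leaving out 1 library ended the others, at most at an adjusted p of 0.0908 for Abca5 (without ES control replicate 2), 0.143 for Abca7 and 0.164 for Abce1 (both without day 16 replicate 1), 0.283 for Abcb1b (without day 16 GW3965 replicate 2) and 0.195 for Abcc2 (without ES GW3965 replicate 1). Between day 17 and ES cells they were Abca9 (1.38, 0.0353), Abcc4 (-0.43, 0.0474), Abcd4 (0.56, 0.0177) and Abce1 (-0.68, 6.25e-06). That of Abce1 held in every setting, and the others ended at most at 0.236 for Abca9 (without ES control replicate 1), and at 0.282 for Abcc4 and 0.0964 for Abcd4 (both without day 17 replicate 1).

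Between day 17 and day 16, A class genes with a lower response at day 17 were Abca2 (-0.26, adjusted p = 0.0362), Abca5 (-0.80, 3.77e-05) and Abca8b (-1.24, 0.00259), and those with a higher one Abca7 (1.08, 0.000253) and Abca9 (1.64, 0.000653). In the B class the differences were -0.69 for Abcb1b (0.000844) and -0.38 for Abcb6 (0.0237). In the C class they were 0.44 for Abcc10 (0.0488), 2.47 for Abcc2 (0.00395), -0.55 for Abcc4 (0.0113) and 2.23 for Abcc9 (0.000401). The D class genes Abcd2 (0.75, 0.0314) and Abcd4 (0.51, 0.0193) responded higher at day 17. The rest were Abce1 (-0.43, 0.000248), Abcg2 (0.48, 0.00314) and Abcg4 (-0.78, 0.0292). Of these calls 7 ended when 1 library was left out. At most the adjusted p was then 0.107 for Abcb6 (without day 16 replicate 2), 0.116 for Abca2 and 0.142 for Abcc10 (without day 16 GW3965 replicate 2), 0.0913 for Abcc4 and 0.0937 for Abcd4 (without day 17 replicate 1), 0.123 for Abcg4 (without day 17 GW3965 replicate 1), and 0.227 for Abcd2 (without day 17 GW3965 replicate 2).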

How the results depend on the processing

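No called gene changed direction in any setting. Counts of called ABC genes moved by more than 1.5 times as follows. In the fit of the compared groups alone there were 1 for GW3965, 4 for LG268 and 2 for both ligands against ES control, 1 for both ligands against GW3965, 11 for GW3965 at day 17 and 7 for the day 17 response against that in ES cells, for which limma-voom gave 2. With no filter there were 2 for LG268, 3 for both ligands against LG268 and 2 for the ligand interaction. For both ligands against LG268, DESeq2 size factors gave 1, the DESeq2 Wald test 2 and leaving out the day 17 libraries 1.

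Leaving out 1 library at a time gave 2 to 11 calls for both ligands against control, 1 to 11 against GW3965, 0 to 6 against LG268 and 0 to 1 for the interaction. It gave 6 to 11 for GW3965 at day 16 and 8 to 11 at day 17. For differences of responses it gave 3 to 5 (day 16 and ES cells), 1 to 4 (day 17 and ES cells) and 11 to 17 (day 17 and day 16).

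The replicate block moved no count by more than 1.5 times, with 34 calls at day 8, 27 at day 16 and 8 for both ligands. Besides calls named in the report, it ended among others those of Abca7 (adjusted p = 0.057) and Abcb1b (0.0521) for day 16 against ES cells, Abcc4 (0.0564) for day 17 against ES cells and Abcc10 (0.0555) for day 17 against day 16. Depth limits genes near 0 CPM, such as Abcg5, Abcg8 and Abca13. For these the lack of a call does not show that a difference was absent. The cause of lost calls was not tested.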
